A study of Mus musculus with 20 samples.

Results

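Lasting primed elements are chromatin regions that carried H3K4me1 in both fetal and adult hematopoietic stem cells (HSCs) and neither H3K27ac nor H3K4me3 in either. They were found by merging the H3K4me1 and H3K27ac peaks of both stages on chromosomes 1 to 19 wherever peaks shared at least 1 bp. This gave 76507 regions, of which 56996 overlapped no H3K4me3 peak and 45928 of these overlapped no H3K27ac peak either. Among the 45928 primed elements, 1975 overlapped H3K4me1 peaks of both stages, 42824 of the fetal list only and 1129 of the adult list only. The 1975 elements are described here, and they cover 1.84 Mb. The members were chosen by the measured peak calls of H3K4me1, H3K27ac and H3K4me3, so widths and scores of H3K4me1 are given as a description. H3K27me3 had no part in the choice.

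The study profiled 4 histone modifications by chromatin immunoprecipitation and sequencing (ChIP-seq) in HSCs of B6129SF1 mice. Fetal cells came from liver at embryonic day 14.5, and adult cells from bone marrow of mice aged 6 to 8 weeks. At both stages the cells were sorted as lineage-negative, Sca1-positive, cKit-positive and CD135-negative, with 50000 cells per reaction, a gate that takes in multipotent progenitors as well as HSCs. The labels give 2 replicates per mark and stage, and 1 combined peak list per mark and stage was analysed, so no value has a replicate error and no test between stages was possible. No list measures a gene product, so the labelled cell type could not be checked against its markers. The H3K4me1 lists differed in size, with 92339 fetal peaks of median width 430 bp and 12502 adult peaks of median width 193 bp. Whether a region without an adult peak lacked the mark, or carried it below what that list detects, cannot be told apart. Nor can a mark in some of the sorted cells be told from a lower level in all of them. Intervals after shares are 95% Clopper-Pearson intervals and those after medians are 95% order-statistic intervals. Both cover counting error over elements only.

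H3K4me1 is a histone methylation laid down at enhancers by the methyltransferases KMT2C and KMT2D. Enhancers that carry it without H3K27ac, the acetylation left by p300 and CBP at active enhancers, are called primed, because the mark can precede activity or outlast it. Enhancers with H3K4me1 and H3K27me3, the mark of Polycomb repressive complex 2, are called poised. H3K4me3 marks promoters. In blood stem cells primed enhancers are known at genes that are used later, in particular lineages.

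H3K4me1 of both stages was found at 7559 of all merged regions, or 9.88%. Of these, 2541 were left out for H3K4me3 and 3043 for H3K27ac, so that 26.1% remained as primed. The members made up 4.3% of all primed elements. They held 2174 of the adult H3K4me1 peaks, or 17.4% of that list, and 2035 of the fetal peaks, or 2.204%. The overlap of the fetal and adult peaks within a member had a median of 178 bp (173 to 181). Close to the edge of the rule, 77 members shared 50 bp or less, the least being 1 bp, while 91 adult-only elements had a fetal H3K4me1 peak at most 50 bp away without overlap. An H3K27ac peak lay within 50 bp of 29 members and an H3K4me3 peak within 50 bp of 6. Conversely, 13 regions with H3K4me1 of both stages were left out although H3K4me3 covered 50 bp of them or less.

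In the fetal list the members were broad, and in the adult list the same places were marked by a narrow peak. Element width had a median of 749 bp (725 to 777), quartiles of 482.5 and 1200 bp, and a range of 203 to 4861 bp. The fetal-only primed elements were narrower, with a median of 352 bp (350 to 355). An element of 1000 bp or more was found for 33.1% (31.0 to 35.2) of members and 5.36% (5.15 to 5.58) of fetal-only elements. The widest adult H3K4me1 peak in a member had a median width of 186 bp (184 to 189), close to that of the whole adult list. Adult H3K4me1 amounted to a median of 29.1% (28.1 to 30.2) of the fetal length, and reached 50% or more of it in 402 members. It exceeded the fetal length in 30 members.

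The adult length followed the fetal one only weakly. Members under 500 bp had a median of 172 bp (169 to 176) of adult H3K4me1, and those from 500 to under 1000 bp had 190 bp (186 to 197). Members from 1000 to under 2000 bp had 205 bp (196 to 217), and the 133 members of 2000 bp or more had 282 bp (244 to 361). The adult length as a percentage of the fetal length therefore had medians of 51.8, 29.1, 15.8 and 11.5% in these 4 classes. Across the 1975 members, Spearman's rho between fetal and adult length was 0.279. The elements share the same pair of lists, and this is a description of those lists.

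**Figure D1:**
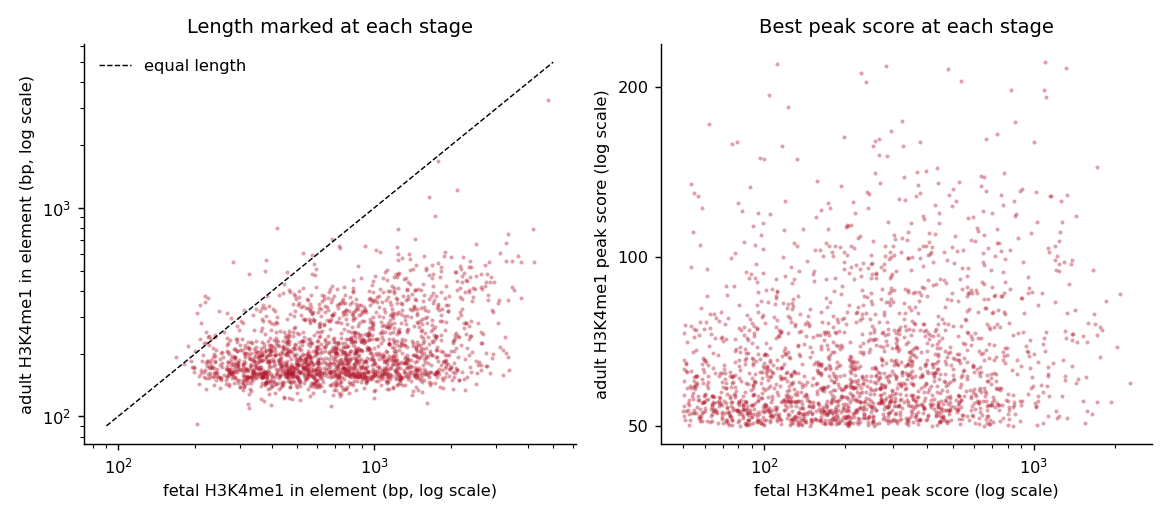
Each point is 1 of the 1975 lasting primed elements. Left, fetal against adult H3K4me1 length in the element, in bp on log axes, with a dashed line of equal length. Right, the best fetal against the best adult peak score on log axes. Nearly all points lie below the line, and the median adult length is 189 bp.

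By score, the fetal peaks of members ranked high in their list and the adult peaks near the middle of theirs. The score is the peak caller's own value for a peak and has no stated unit, so fetal and adult scores are not compared in size. The best fetal peak of a member had a median score of 228.53 (216.76 to 242.65), which is at percentile 74.6 of the fetal list. In fetal-only primed elements the median was 88.33 (87.61 to 88.89), at percentile 36.2. The best adult peak had a median score of 60.8 (59.91 to 61.38), at percentile 46.3 of the adult list, and 952 members had an adult score below 60, against a lowest score of 50 in the H3K4me1 lists. Only 186 members reached an adult score of 100. Adult-only primed elements had a median adult score of 56.41 (55.85 to 56.9). Distal elements acetylated at both stages and carrying adult H3K4me1 numbered 1731 and had a median adult score of 79.1 (75.5 to 81.43). Spearman's rho between fetal and adult scores of the members was 0.193. In contrast, fetal length and fetal score were nearly interchangeable, with a rho of 0.947.

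The share of fetal primed elements that also had an adult peak was 4.41% (4.22 to 4.60) in all, and it differed widely by width. It was 1.67% (1.53 to 1.82) for elements under 500 bp, 7.94% (7.41 to 8.49) from 500 to under 1000 bp, 19.6% (18.1 to 21.2) from 1000 to under 2000 bp and 44.8% (39.0 to 50.6) from 2000 bp. By fetal score it was 1.55% (1.40 to 1.71) under 100 and 25.3% (23.5 to 27.2) from 400. A wider element offers more bases for a 1 bp overlap, and these shares come from the marks that define the members.

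**Figure D2:**
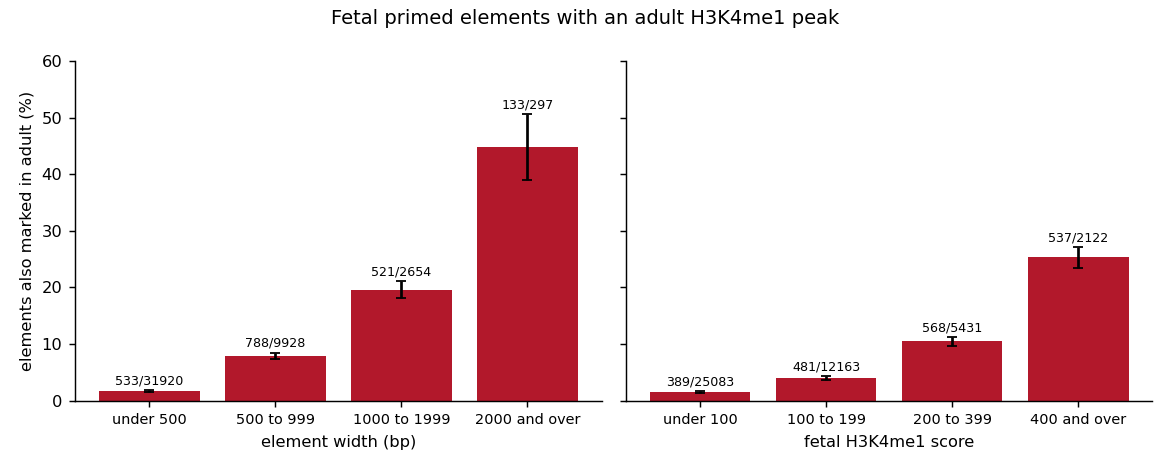
Percentage of fetal primed elements with an adult H3K4me1 peak, by element width in bp (left) and by fetal H3K4me1 score (right). Bars are shares, error bars are 95% Clopper-Pearson intervals, and the fractions are elements with an adult peak over all fetal primed elements of the class. The share is 1.67% in the narrowest and 44.8% in the widest class.

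Inside the members the 2 stages mostly had a single peak each. A single fetal peak was present in 1915 members and 2 in the other 60, where an adult peak bridged a gap of median 40 bp (29 to 52). A single adult peak was present in 1793 members, 2 in 166, 3 in 15 and 4 in 1. The member with 4, singled out for that number, was on chromosome 17 from 28434860 to 28436962, and its adult peaks covered 1223 of 2103 bp. Where a member had several adult peaks, the centres of neighbouring peaks were 385 bp (355.5 to 436) apart at the median. Among the 1741 members with 1 peak per stage, the adult centre lay a median of 145 bp (138.5 to 153) from the fetal centre. It fell in the inner 50% of the fetal peak in 55.9% (53.5 to 58.2) and outside the fetal peak in 8.62% (7.34 to 10.03). All adult H3K4me1 lay within fetal H3K4me1 in 1377 members, or 69.7% (67.6 to 71.7).

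H3K27me3 was rare at the members. In the fetal list it overlapped 150 of them, or 7.59% (6.46 to 8.85), against 5.68% of all distal elements without H3K4me3. In the adult list it overlapped 97, or 4.91% (4.00 to 5.96), against 3.73%. Both stages had it at 96 members, against 3.65% of all distal elements, the fetal list only at 54, against 2.03%, and the adult list only at 1, against 0.079%. The remaining 1824 members, or 92.4%, had no H3K27me3 at either stage. The member with adult H3K27me3 only, singled out for that state, was on chromosome 2 from 163057646 to 163058635, where an adult peak with a score of 51.18 covered 176 bp.

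The members did not differ detectably in H3K27me3 from fetal-only primed elements, of which 6.84% (6.61 to 7.09) had the fetal and 4.60% (4.40 to 4.80) the adult mark. The difference, members minus fetal-only elements, was 0.751 percentage points (95% Newcombe interval for a difference of 2 shares, -0.364 to 2.02) for the fetal and 0.311 points (-0.581 to 1.37) for the adult mark. Within each of the 4 width classes and each of the 4 fetal score classes, the interval also included 0 for both stages. Of the members with fetal H3K27me3, 64.0% (55.8 to 71.7) also had it in the adult list, and of such fetal-only elements 65.8% (64.1 to 67.5). The H3K27me3 lists differed, with 14579 fetal peaks of median width 1408 bp and 22831 adult peaks of median width 280 bp. Absence of the adult mark therefore cannot be told from adult calls that left the place out. Distal elements acetylated in both stages had fetal H3K27me3 at 0.507% (0.296 to 0.811) and adult H3K27me3 at 3 of 3351, or 0.0895% (0.0185 to 0.261). Primed elements were chosen for lacking H3K27ac and this comparison group for having it.

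**Figure D3:**
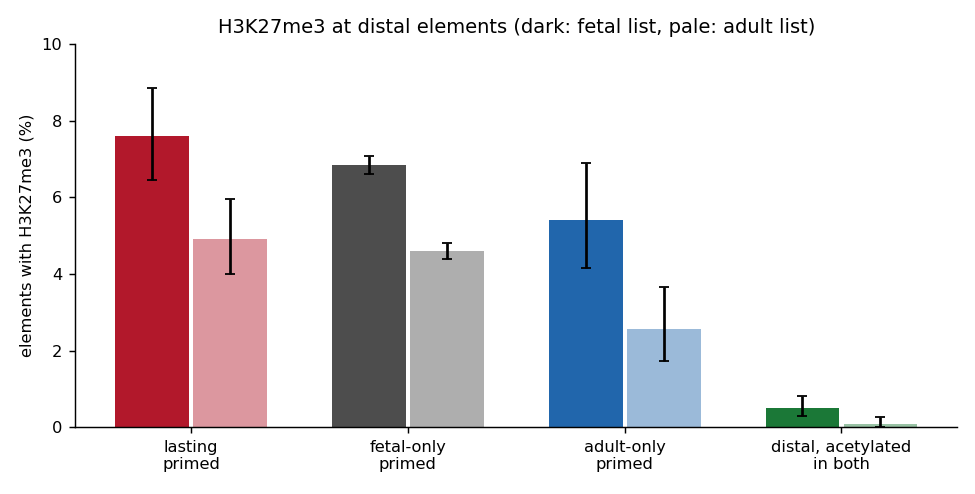
Percentage of distal elements that overlap an H3K27me3 peak, for lasting, fetal-only and adult-only primed elements and for distal elements acetylated in both stages. Dark bars are the fetal and pale bars the adult list, and error bars are 95% Clopper-Pearson intervals. Lasting and fetal-only primed elements stand at 7.59 and 6.84% in the fetal list, and acetylated elements at 0.507%.

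Most members with H3K27me3 lay inside broad Polycomb domains, and 115 of the 150 with the fetal mark were wholly covered by it. Of the 96 with the mark at both stages, 95 were wholly covered. The widest fetal peak touching them had a median width of 10278 bp (8384 to 13174), compared with 1408 bp (1378 to 1437) for all fetal H3K27me3 peaks. A wide peak is more likely to touch an element, and the widest was taken, so part of this difference comes from the choice of peaks. The 54 members with H3K27me3 in the fetal list only were touched by narrower fetal peaks, with a median of 3912.5 bp (2560 to 6123), and 20 of them were wholly covered. Adult H3K27me3 covered a median of 93.0% (84.5 to 97.2) of the 97 elements it touched and the whole of 28. The 150 members were touched by 141 fetal H3K27me3 peaks, 12 of which touched more than 1 member, so these members are not all independent. The median adult H3K4me1 score was 59.075 (55.48 to 63.64) with H3K27me3 at both stages and 60.85 (59.92 to 61.47) with none. The median fetal H3K4me1 score was 272.41 (204.93 to 311.2) with H3K27me3 at both stages, 281.465 (172.63 to 390.09) with the fetal mark only and 226.115 (213.57 to 239.35) with none.

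Members with H3K27me3 at both stages stood far from acetylated distal elements, which are defined here as merged regions with H3K27ac at either stage and no H3K4me3. None of these 96 had such an element within 10 kb (upper bound 3.77%), and the nearest was 11502 bp away. Of the 1824 members without H3K27me3, 763 or 41.8% (39.6 to 44.1) had an acetylated element within 10 kb. The median distances were 103425 bp (73655 to 129609) and 15490 bp (13658 to 17141). The 54 members with fetal H3K27me3 only had a median of 60715.5 bp (42194 to 71617), with the nearest at 2461 bp, and the member with adult H3K27me3 only was 1589 bp from such an element. Fetal-only primed elements with H3K27me3 at both stages were also mostly far from acetylation, and 3.06% (2.34 to 3.93) of them had an acetylated element within 10 kb. Toward H3K4me3 the order was the opposite, in members and in fetal-only primed elements alike. Fetal-only primed elements had median distances to H3K4me3 of 7519 bp (6654 to 8678) with H3K27me3 at both stages and 17873 bp (17506 to 18220) with none. An H3K4me3 peak lay within 5 kb of 69 of the 150 members with fetal H3K27me3, or 46.0% (37.8 to 54.3), and of 429 members without H3K27me3, or 23.5% (21.6 to 25.5). The nearest H3K4me3 region, where one lay within 50 kb, itself overlapped fetal H3K27me3 for 76.4% (67.9 to 83.6) of the former and 15.5% (13.7 to 17.5) of the latter. It had no H3K27ac at either stage for 50.4% (41.2 to 59.5) and 14.2% (12.46 to 16.1). Among all 17586 H3K4me3 regions, 22.5% overlapped fetal H3K27me3 and 22.5% had no H3K27ac at either stage.

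Over all 1975, most members, like most primed elements, lay within 10 kb of an H3K27ac peak but not next to one. Overlap with H3K27ac was excluded by the rule. The distance to the nearest H3K27ac peak of either stage had a median of 6932 bp (6347 to 7688), and 17.3% (15.6 to 19.01) of members had such a peak within 1 kb, against 17.5% of all primed elements. Within 10 kb these shares were 58.5% (56.3 to 60.7) and 55.9%. Fetal H3K27ac was nearer than adult H3K27ac, at medians of 7998 bp (7170 to 8957) and 12542 bp (11189 to 13655), with 23368 and 17834 peaks in the lists. The order was the same in fetal-only primed elements, at 8444 and 15359 bp, and in adult-only ones, at 10016 and 13185 bp. The nearest acetylated distal element was at a median of 17504 bp (15982 to 19246), within 1 kb of 12.1% (10.6 to 13.6) of members against 11.2% of primed elements, and within 10 kb of 39.0% (36.9 to 41.2) against 34.4%. No acetylated distal element was found within 100 kb of 316 members, or 16.0% (14.4 to 17.7). This share was 21.1% (20.7 to 21.5) in fetal-only and 23.3% (20.9 to 25.9) in adult-only primed elements.

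Over all widths, members were closer to acetylated distal elements than fetal-only primed elements were. In fetal-only elements the median distance was 23786.5 bp (23187 to 24354), and 34.2% had an acetylated element within 10 kb, so that the share in members was higher by 4.86 percentage points (Newcombe interval 2.69 to 7.08). Within the 4 width classes the difference was 3.24, -0.152, 3.801 and 1.27 points from the narrowest to the widest, and each interval included 0. At 100 kb the interval excluded 0 in the class under 500 bp, at 3.93 points (0.363 to 7.05), and included 0 in the other 3 classes.

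The distance to the nearest H3K4me3 peak of either stage had a median of 15675 bp (14517 to 17184) in members, 17097.5 bp (16782 to 17432) in fetal-only elements and 17629 bp (16709 to 18779) in distal elements acetylated in both stages. An H3K4me3 peak lay within 1 kb of 7.49% (6.37 to 8.74) of members, against 9.13% of all primed elements, and within 10 kb of 38.0% (35.9 to 40.2) against 37.8%. The share within 1 kb was lower than in fetal-only elements by 1.71 points, with an interval of the difference from -2.83 to -0.439. By width this difference was -1.80 points (-3.87 to 0.869) under 500 bp and 0.601 and -0.950 points in the next 2 classes, whose intervals included 0. It was 6.40 points (0.195 to 13.3) from 2000 bp, with H3K4me3 within 1 kb of 11.3% of 133 members and 4.88% of 164 fetal-only elements. The intervals are not adjusted for the number of distances and width classes compared. At 10 kb the difference was 0.121 points (-2.04 to 2.33) over all widths and 13.5 points (2.24 to 24.4) from 2000 bp. In the narrower classes it was -2.61, 1.28 and -3.91 points, and each interval included 0. At 50 kb it was 2.91 points (1.02 to 4.69) over all widths and 9.31 points (0.655 to 17.5) from 2000 bp. In the narrower classes it was -0.646, 1.80 and -0.722 points, and each interval included 0. Members from 2000 bp were also more often within 10 kb of an H3K27ac peak of either stage, by 11.9 points (1.38 to 21.9). At 1, 5, 50 and 100 kb the interval for H3K27ac in that class included 0. The nearest H3K4me3 region within 50 kb carried H3K27ac of both stages for 70.5% (68.2 to 72.7) of members and 72.7% (72.3 to 73.2) of fetal-only elements, and for 65.8% of all H3K4me3 regions. It had H3K4me3 at both stages for 81.9% (79.9 to 83.7) and 84.5% (84.1 to 84.9).

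**Figure D4:**
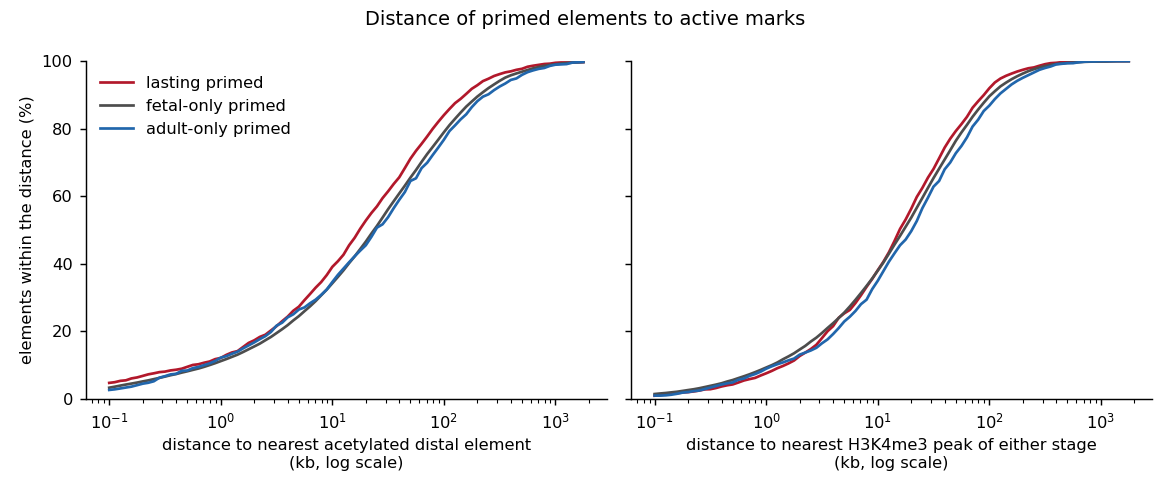
Cumulative percentage of lasting, fetal-only and adult-only primed elements within a given distance, in kb on a log axis, of the nearest acetylated distal element (left) and of the nearest H3K4me3 peak of either stage (right). At 10 kb from an acetylated element the lasting primed elements are at 39.0% and the fetal-only ones at 34.2%. At 10 kb from H3K4me3 they are at 38.0 and 37.9%, and the adult-only ones at 34.9%.

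The acetylated elements near members were less often acetylated in the fetal list only than those near fetal-only primed elements. An acetylated distal element lay within 50 kb of 1402 members. The nearest was acetylated in both stages for 505, or 36.02% (33.5 to 38.6), in the fetal list only for 733, or 52.3% (49.6 to 54.9), and in the adult list only for 164, or 11.7% (10.1 to 13.5). For the 728 adult-only primed elements with one within 50 kb these shares were 33.8, 51.0 and 15.2%. The low share of fetal-only acetylation was thus not particular to members. For fetal-only primed elements the shares were 31.6, 59.955 and 8.45%, close to 30.3, 61.3 and 8.38% among all 11068 acetylated elements. The differences, members minus fetal-only primed elements, were 4.43 points (1.90 to 7.03), -7.67 points (-10.4 to -5.01) and 3.25 points (1.63 to 5.06). By width, the lower share of fetal-only acetylation was found under 500 bp, at -10.6 points (-15.8 to -5.36), and from 500 to under 1000 bp, at -7.05 points (-11.4 to -2.69). It was -0.817 points (-6.30 to 4.60) from 1000 to under 2000 bp and -5.06 points (-17.3 to 7.40) from 2000 bp. With equal numbers of top-scoring H3K4me1 peaks from both stages, 582 members remained and the difference was -1.44 points (-6.70 to 3.79), which no longer excluded 0. The nearest acetylated element carried adult H3K4me1 for 38.6% (36.03 to 41.2) of members and 32.9% (32.3 to 33.4) of fetal-only elements. Among all acetylated distal elements the share was 28.0%. The same adult list separates members from fetal-only elements, so these shares are only a description. Neighbouring elements can share the same acetylated element, so the intervals are too narrow to that extent.

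Single members show the range within the class. They are named by position in mm9, and genes are not named because gene positions of that build were not used here. Members on chromosome 18 are counted above but are not named, so each ranking of named members is over the other chromosomes. The widest, on chromosome 1 from 90153970 to 90158830, was unlike the rest. Its adult H3K4me1 covered 3287 bp, or 68.8% of the fetal length, and its fetal score of 198.33 was low for 4779 bp of fetal H3K4me1. The nearest acetylated distal element was 122496 bp away. The next 4 in width had the usual form. The second, on chromosome 1 from 89771693 to 89775916, held 3 adult peaks that covered 551 of 4224 bp, with a fetal score of 2278.32 and an adult score of 59.64. The third, on chromosome 11 from 118986855 to 118991010, measured 4156 bp, and fetal H3K27me3 covered 470 bp of it. The fourth, on chromosome 19 from 3653128 to 3656882, had 550 bp of adult H3K4me1 in 3755 bp. The fifth, on chromosome 2 from 93031548 to 93035296, had a single adult peak of 368 bp in 3749 bp and an H3K4me3 peak 1853 bp away.

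The 5 members with the highest adult scores, from 221.59 to 215.39, were between 807 and 2700 bp wide, and none had H3K27me3. The highest was on chromosome 2 from 153308462 to 153310327, with 586 bp of adult H3K4me1 in 1866 bp and the nearest H3K27ac peak 7096 bp away. The next, on chromosome 15 from 85806517 to 85807323, had more adult than fetal H3K4me1, at 804 and 418 bp. The third, on chromosome 8 from 124530556 to 124531474, stood 34088 bp from any H3K27ac peak. The fourth, on chromosome 19 from 46605340 to 46608039, lay 1180 bp from adult H3K4me3, and the fifth, on chromosome 7 from 86406674 to 86408142, had 575 bp of adult H3K4me1.

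Of members with H3K27me3 at both stages, the 3 with the longest adult H3K27me3 were wholly covered by the fetal mark. The first, on chromosome 11 from 83664262 to 83667600, measured 3339 bp, had 3210 bp of adult H3K27me3 and lay 228 bp from fetal H3K4me3. The second, on chromosome 15 from 75833369 to 75835542, had 2067 of 2174 bp under adult H3K27me3, within a fetal domain of 20177 bp. The third, on chromosome 6 from 52194801 to 52196858, had 2047 of 2058 bp under it, within a fetal domain of 27928 bp. Adult H3K4me1 in these 3 was narrow, at 192, 220 and 181 bp. At the other extreme, the 3 members farthest from H3K27ac were on chromosome 12 from 97436607 to 97436900, chromosome 5 from 41312120 to 41312421 and chromosome 14 from 86364916 to 86365196. They stood 2016073, 785642 and 681687 bp from the nearest H3K27ac peak. All 3 were narrow, at 294, 302 and 281 bp, had fetal scores below 100 and lacked H3K27me3.

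Members were scattered, with a median of 108568 bp to the next member. When members at most about 13 kb apart were chained, 431 of the 1975, or 21.8%, fell into 198 groups of 2 or more, and 29 groups had at least 3. Outside chromosome 18, the largest group had 5 members on chromosome 8 from 124831230 to 124856276, a span of 25047 bp. Their widths were 318, 391, 2400, 1155 and 1080 bp, their fetal scores 55.82, 91.74, 723.92, 403.82 and 424.02, and their adult scores 74.06, 60.04, 66.2, 73.22 and 64.55. None had H3K27me3. The 3 wider members each lay 200 bp or less from an acetylated distal element, at 200, 32 and 118 bp, and the 2 narrow ones 1465 and 2141 bp from one. Within 60 kb of the centre of the group there were 10 fetal and 8 adult H3K27ac peaks and 53 fetal and 22 adult H3K4me1 peaks. Outside chromosome 18, the densest 1 Mb bin was on the same chromosome, from 124 to 125 Mb, with 12 members.

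**Figure D5:**
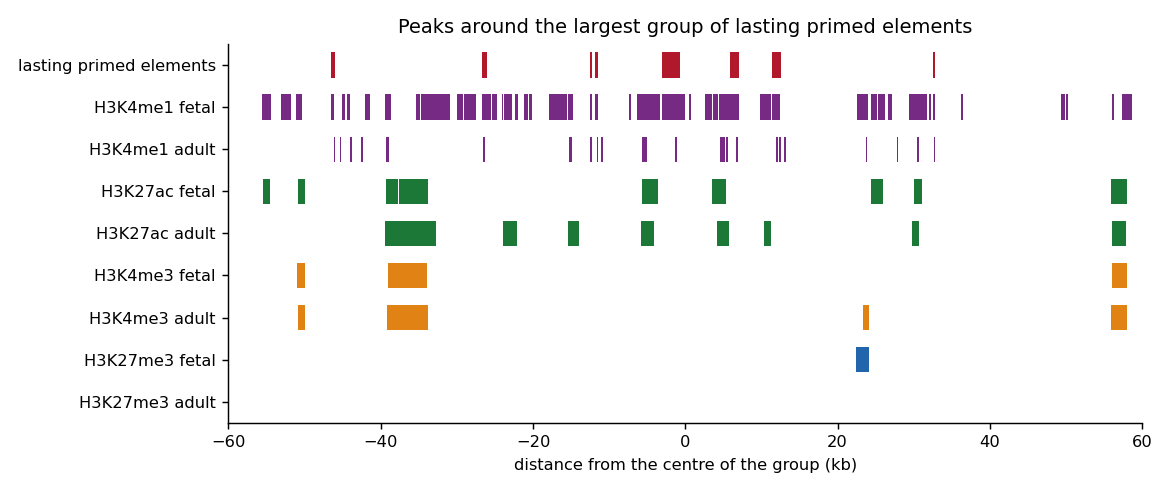
Peaks of each list within 60 kb of the centre of the largest group of lasting primed elements, with the distance from the centre in kb on the horizontal axis. Each bar is a peak drawn to scale, and the top track holds the 8 lasting primed elements of the window. The elements sit between acetylated peaks, and the only H3K27me3 peak of the window is fetal.

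The share of fetal primed elements that also had adult H3K4me1 ranged from 3.45 to 5.24% over the 19 chromosomes. It was lowest on chromosome 12, at 3.45% (2.66 to 4.39), and highest on chromosome 11, at 5.24% (4.53 to 6.01). Chromosome 11 also held the most members, 188 of 3591 fetal primed elements, and the most with fetal H3K27me3 with 24. Chromosome 2 had the most fetal primed elements with 3831, of which 160 were members and 17 of these had fetal H3K27me3. These counts are not scaled to the H3K27me3 of each chromosome.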

How the data were processed

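ChIP-seq of H3K4me3, H3K27ac, H3K4me1 and H3K27me3 and the inputs made up 20 samples in 10 groups of 2. Reads were aligned with Bowtie2 2.2.2 and the build is mm9, per the submitters' processing notes. The deposited data used here are 8 peak lists titled as combined, taken as calls on pooled replicates. Peak names begin with MACS, per the file contents. The caller's version, settings and control are not given in the sources used here. The deposited score of each peak is the authors' value, is at least 50 in every list, and was used only to rank or filter within a list. Read depth is unknown. Inputs and single replicates were not analysed here.

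Peaks were merged and overlapped at 1 bp or more on chromosomes 1 to 19. Distances run from edge to edge. An element with several peaks takes its best score. Differences of shares have 95% Newcombe intervals. With pooled lists no p-value is given. Named elements were the 5 widest, the 5 with the highest adult score and the 3 farthest from H3K27ac. Also named were the 3 with most adult H3K27me3 among those with it at both stages, and the largest group. Groups were chained over gaps of at most 12.5 kb. Elements on chromosome 18 were not named, and counts, groups included, cover chromosomes 1 to 19. The members, lists and rules were chosen with earlier results of these data known. Interval code was tested on simulated data. Calculations used Python 3.11.15, numpy 2.4.6, pandas 2.3.3, scipy 1.17.1 and matplotlib 3.10.9.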

Additional observations from a re-analysis of the deposited data

How the results depend on the processing

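No paired analysis was possible because the lists hold pooled replicates, which also means that single replicates could not be left out. Joining H3K27me3 peaks within 1 kb, which changed neither share, and all alternatives for the 2 differences from fetal-only elements were chosen after seeing the data. The values below left the interval of the reported value, or changed a count by more than 1.5 times. Except where the construction of the alternative sets the change, the cause was not tested. The number of members fell from 1975 to 582 with equal numbers of top-scoring H3K4me1 peaks and to 870 with at least 200 bp of adult H3K4me1. It was 1981 with only peaks at or above the median score of every list, but only 721 of these overlapped reported members. Of the 1975 reported members, 908 had an adult score at or above the list median. Under this alternative weaker H3K4me1 peaks no longer made members, and weaker H3K27ac and H3K4me3 peaks no longer removed elements. H3K27me3 was then at 9.14% of elements in the fetal and 6.01% in the adult list, and with H3K27me3 within 1 kb at 9.52 and 6.23%. The median distance to an acetylated distal element was 48569 bp with the better-scoring peaks, 12455.5 bp with equal numbers, 31129 bp with peaks joined within 1 kb, 14472.5 bp with 200 bp of adult H3K4me1, 21999.5 bp without elements within 1 kb of H3K4me3 or H3K27ac, and 19256 bp between midpoints. For H3K4me3 it was 34698 bp with the better-scoring peaks, 12898.5 bp with equal numbers, 20944 bp with joined peaks, 19041.5 bp without the elements within 1 kb, and 17318 bp between midpoints. Adult H3K4me1 amounted to a median of 22.6% of the fetal length with the better-scoring peaks, 15.1% with equal numbers, 20.3% with joined peaks and 32.4% with 200 bp of adult H3K4me1. The difference in fetal-only acetylated neighbours was -1.44 points with equal numbers. The difference within 10 kb of an acetylated element kept its sign and an interval above 0 under all 7 alternatives run, from 3.62 to 9.004 points. None of these alternatives held element width constant, and within each width class the interval of this difference included 0. Adding X and Y moved no value. Depth is unknown, so a missing adult peak sets no upper limit on adult H3K4me1.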

Other observations

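By the same rule, the X chromosome held 3 lasting primed elements among 260 fetal primed elements, or 1.15% (0.239 to 3.33), a share whose interval lies below the 4.41% of chromosomes 1 to 19. They were on X from 96241359 to 96242222, from 148607288 to 148607695 and from 163418054 to 163418307. No fetal primed element was found on Y, where 3 regions were merged in all. The unplaced contigs held 1 lasting element among 10 fetal primed elements.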
